A study of Caenorhabditis elegans with 18 samples.

Results

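The genes described here encode proteins of the cytosolic ribosome in Caenorhabditis elegans, apart from rpl-24.2, described below. They were taken as every gene of the deposited table whose WormBase symbol is rpl- or rps- followed by a number, and genes of the mitochondrial ribosome (mrpl- and mrps-) were left out. Ribosomal proteins under other symbols, such as the stalk proteins rla-0, rla-1 and rla-2 and the ubiquitin fusions ubq-2 and ubl-1, are also outside the rule. The rule found 78 of 20953 genes, 47 named for the large subunit (rpl) and 31 for the small subunit (rps). All 78 are protein-coding, and all 78 passed the filter on low values.

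Transcript levels came from RNA sequencing of whole L4 larvae, about 3000 animals per library, in 18 libraries that form 9 groups of 2. The wild type strain N2 was compared with a strain carrying the nhr-10 deletion tm4695 and with strain VC1527, which carries the nhr-68 deletion gk708. Each mutant is a single strain, so a second difference carried by that strain cannot be told apart from the named deletion. nhr-10 and nhr-68 encode nuclear hormone receptors, a class of transcription factors, and the series asks how they act in the rewiring of metabolism. Animals of all 3 genotypes were grown on agar plates without vitamin B12 after 18 h of arrest as L1 larvae. For 48 h they then had no addition, B12 at 20 nM, or the same dose of B12 together with propionate at 40 mM, a short-chain fatty acid whose canonical breakdown needs B12. No group received propionate alone. Nothing in the labels says that the libraries of a group came from separate cultures, so the p-values measure the spread between these libraries, which may be technical.

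A cytosolic ribosome joins a small subunit, which reads the messenger RNA, to a large subunit, which forms the peptide bonds and through which the new chain leaves. Each subunit needs its proteins in nearly equal numbers, and their genes are among the most highly transcribed of a growing animal. In C. elegans the larval stages and the expanding germline are times of rapid growth, and the demand for ribosomes is high in both.

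Values are FPKM, the fragments counted on a gene divided by its length and by the size of the library. Each deleted gene was lower in its own mutant than in wild type. nhr-10 had 6.14 to 10.33 FPKM in 6 nhr-10 libraries and 12.23 to 33.5 FPKM in wild type, and nhr-68 had 1.71 to 14.95 FPKM in 6 nhr-68 libraries and 48.7 to 108 FPKM in wild type, without overlap. In nhr-10 libraries nhr-68 ran from 5.18 to 140 FPKM with a median of 15.6, which overlaps both nhr-68 mutants and wild type. The level of nhr-68 therefore does not tell every library of the 2 mutants apart, although its median in nhr-68 mutants was 3.24 FPKM. The level of nhr-10 does tell them apart, since it was 16.9 to 21.82 FPKM in 6 nhr-68 libraries. Sperm markers, which L4 hermaphrodites are known to express, summed to 7426 FPKM or more in every library. Depth, estimated from the smallest FPKM steps, ran from 12.7 to 14.3 (in units of 1e6 fragments) per library. All 6 nhr-68 libraries were deeper than all 6 wild type libraries, which reached 13.1, so depth and the nhr-68 genotype cannot be told apart. Summed FPKM per library ran from 842000 to 920002. The second nhr-10 library on B12 with propionate stood apart, most clearly in its vitellogenins. Its 6 vitellogenins, the yolk protein genes, summed to 104 FPKM against 629 or more in every other library. Its 16 germline markers had the lowest sum, 702 FPKM, near the 731 FPKM of wild type B12 replicate 1. Its 12 hypodermis and moulting markers had the highest sum, 5114 FPKM, near the 4898 FPKM of untreated wild type replicate 1. In these bulk samples fewer cells of a type and less RNA per cell cannot be told apart.

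The ribosomal protein genes held 17.5% to 22.02% of all FPKM in a library. The share was 18.1% ± 0.909 in untreated wild type, 18.7% ± 0.146 on B12 and 18.5% ± 0.294 on B12 with propionate (SD, n = 2 each). It was 19.2% ± 0.193, 18.8% ± 0.373 and 20.7% ± 1.85 in the same order in nhr-10 mutants, and 19.9% ± 0.0665, 20.7% ± 1.04 and 20.3% ± 1.08 in nhr-68 mutants. All 6 nhr-68 libraries, at 19.6% to 21.4%, lay above all 6 wild type libraries, at 17.5% to 18.8%, while nhr-10 libraries, at 18.5% to 22.02%, overlapped both. The summed FPKM of the 78 genes did not separate the genotypes in this way, since it was 167891 to 183860 in nhr-68 libraries and 152552 to 172887 in wild type. The total that divides the share was lower in nhr-68 libraries, at 843680 to 866925 FPKM, than in wild type, at 869700 to 918133 FPKM.

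**Figure D1:**
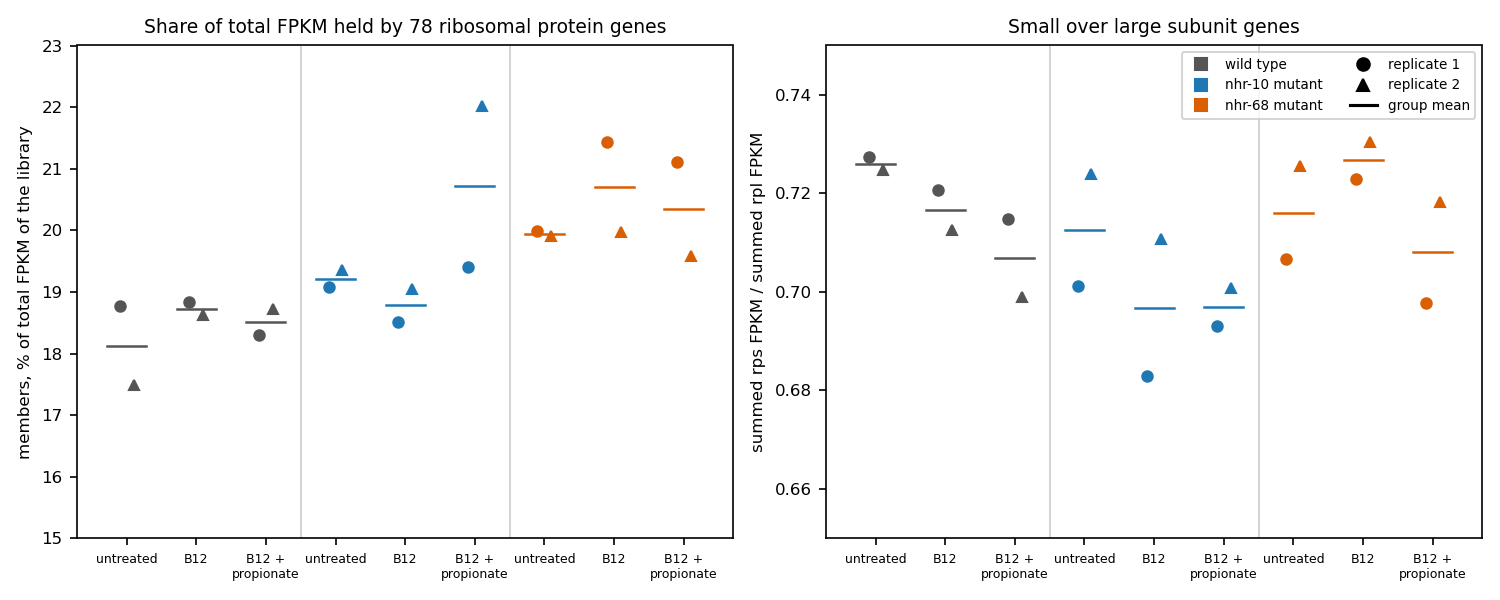
Left, the summed FPKM of the 78 ribosomal protein genes as a percent of the library's total (y axis from 15% to 23%); right, summed rps over summed rpl FPKM. Points are single libraries, horizontal lines the means of 2 libraries, and colours the genotypes; the 6 nhr-68 libraries sit at 19.6% to 21.4%, above the 6 wild type libraries at 17.5% to 18.8%.

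The balance of the subunits varied little. Summed rps over summed rpl FPKM stayed between 0.683 and 0.730 in all 18 libraries. Group means ran from 0.697 in nhr-10 mutants on B12 to 0.727 in nhr-68 mutants on B12, with an SD of 0.0197 and 0.00535 (n = 2 each).

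Mean FPKM differed widely between members, and 57 of the 78 were among the 100 genes with the highest mean FPKM. FPKM is a level per length, and members are set beside each other on that scale. Variation that went with gene length is given below and was not corrected for. The exons of rpl-7 overlap another gene, so its rank is uncertain. The highest was rps-8 of the small subunit, which was also the highest of all genes, with 5587 to 7715 FPKM and a median of 6407. It was followed by 4 genes of the large subunit. These were rpl-7 with a mean of 4510.0 FPKM, rpl-24.1 with 4250 FPKM, rpl-6 with 4150 FPKM and rpl-3, whose protein lies by the peptidyl transferase centre, with 3838 FPKM. The ranges of rps-8 and rpl-7, at 3643 to 5174 FPKM, did not overlap, whereas those of rpl-7, rpl-24.1, rpl-6 and rpl-3 did. 75 of the 78 genes had a mean above 500 FPKM, and the median of the members' means was 2180.4 FPKM.

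The remaining 3 genes were far lower. rpl-42 had 4.24 to 9.76 FPKM with a mean of 7.10, which placed it 9836th among all genes. rpl-24.2, whose human counterpart is the ribosome assembly factor RSL24D1 rather than a protein of the finished ribosome, had 114 to 183 FPKM with a mean of 142. rpl-41.1 had 106 to 236 FPKM with a mean of 148. The next in order were rps-29, a zinc-binding protein of the small subunit, with a mean of 618 FPKM and rpl-25.1, on chromosome X, with 1003 FPKM.

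Single members varied little from library to library. The highest library was less than 2 times the lowest for 75 of the 78, with a median ratio of 1.49. The SD between the 2 libraries of a group, pooled over groups on the log2(FPKM + 1) scale, had a median of 0.127 over the members and of 0.227 over the 15575 tested genes. Among the members it was smallest for rpl-28, at 0.0657, and largest for rpl-11.1, at 0.2699. Tested genes include many of far lower FPKM than the members, and genes of like level were not compared.

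**Figure D2:**
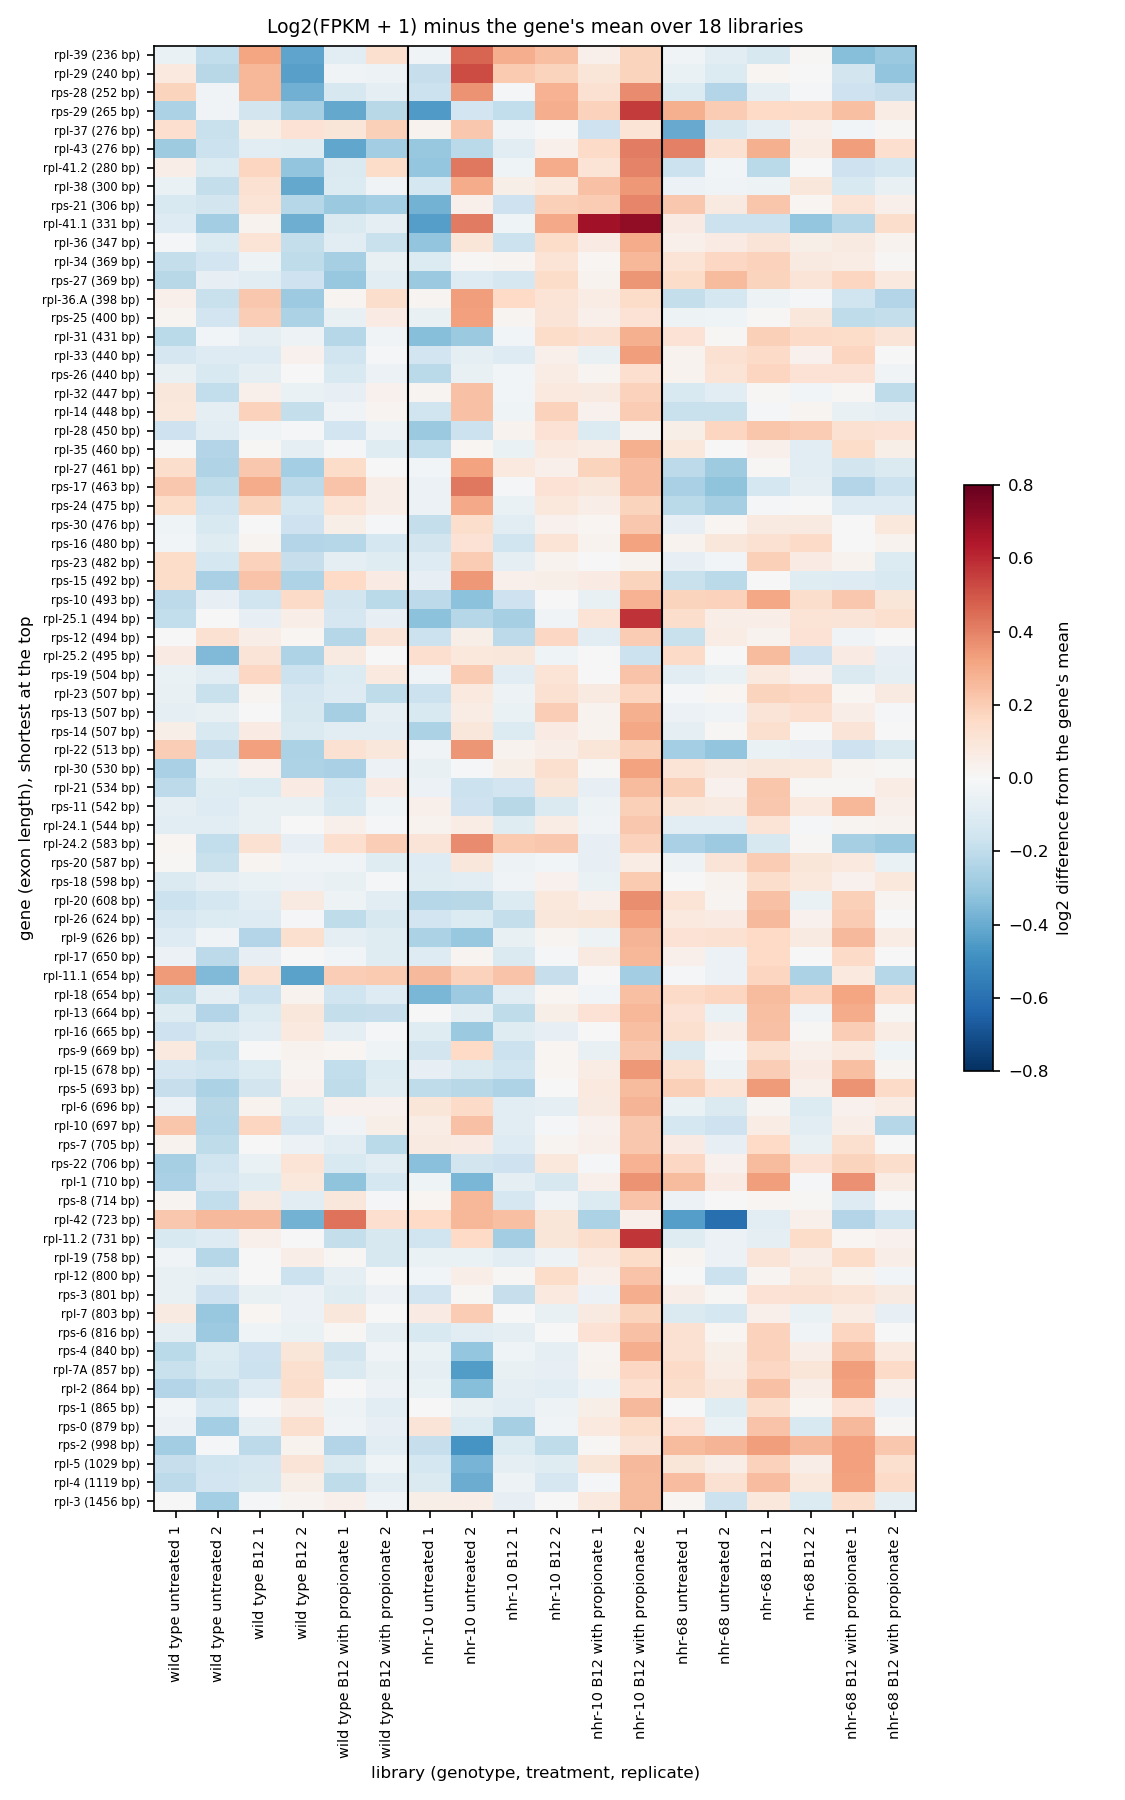
Each row is 1 of the 78 genes, ordered by exon length in bp with the shortest at the top, and each column 1 of 18 libraries. Colour is the log2(FPKM + 1) value minus the gene's mean over all libraries, red above and blue below; the second nhr-10 library on B12 with propionate is red for 76 of the 78 genes, and untreated wild type replicate 2 for 3 of them.

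Added vitamin B12 changed no ribosomal protein gene past the threshold in any genotype. Differences between groups were tested with limma on log2(FPKM + 1) with Benjamini-Hochberg adjustment over all 15575 tested genes, and "called" means an adjusted p under 0.05. In wild type, limma called 0 of the 78 genes on B12 against untreated, where 0.616% of all tested genes were called. 0 members were under an unadjusted p of 0.05, against 8.75% of tested genes. In nhr-10 mutants limma called 0 against 0.783% of tested genes, and 2 members were under an unadjusted p of 0.05 against 13.1%. In nhr-68 mutants limma called 0 against 0.751%, and 1 member was under an unadjusted p of 0.05 against 8.45%.

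The intervals bound the B12 differences only against the spread between these libraries, which may be technical, and on the relative scale of FPKM. The 95% interval of the difference lay inside 2-fold for all 78 genes in each genotype, against 77.4% of tested genes in wild type, 74.7% in nhr-10 mutants and 76.6% in nhr-68 mutants. Genes of like FPKM level were not compared, here or for propionate below. The members' median log2 difference was 0.06 in wild type, 0.04 in nhr-10 and 0.08 in nhr-68, beside -0.08, -0.12 and -0.06 over all tested genes. Median-ratio scaling of the libraries moved the median of all genes to 0.01, 0.01 and -0.01, and the members' medians to 0.16, 0.18 and 0.13. The smallest adjusted p was 0.284, for rpl-31 in nhr-10 mutants, a large subunit protein at the rim of the exit tunnel, with a log2 difference of 0.38 ± 0.135 (SE).

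Propionate on top of B12 also changed no member past the threshold. limma called 0 of 78 members in wild type, where 0.411% of tested genes were called, and 0 in nhr-68 mutants, where 0.417% were called. 0 members were under an unadjusted p of 0.05 in either, against 19% and 9.28% of tested genes. In nhr-10 mutants limma called 0 members, against 7.24% of tested genes, and 3 had an unadjusted p under 0.05, all higher with propionate, against 15.3% of tested genes higher. The 95% interval lay inside 2-fold for all 78 genes in wild type and in nhr-68 mutants, against 71.5% and 75.1% of tested genes, and for 77 in nhr-10 mutants, against 67.4%. The members' median log2 difference was -0.04 in wild type, 0.15 in nhr-10 and -0.04 in nhr-68, beside 0.08, 0.04 and 0.05 over all tested genes. With median-ratio scaling the members' medians were -0.16, 0.08 and -0.09, beside -0.01, -0.02 and 0.01 over all genes.

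The 3 members with an unadjusted p under 0.05 in nhr-10 mutants were rpl-25.1, rpl-11.2 and rpl-41.1. rpl-25.1 encodes a large subunit protein of the L23a family, which sits at the exit of the peptide tunnel, and lies on chromosome X from 4715178 to 4715796 (WBcel235, plus strand). It had 825 and 973 FPKM in the nhr-10 libraries on B12, and 1069 and 1482 FPKM with propionate. The groups do not overlap, which adds no support because the gene was picked by its p-value. The library of 1482 FPKM is the one that stood apart. The log2 difference was 0.49 ± 0.160 (SE, limma adjusted p = 0.0832). Without the first library of nhr-10 mutants on B12 with propionate, which leaves the library that stood apart as the only one of its group, rpl-25.1 was called in this comparison and in the next.

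The propionate response of nhr-10 mutants was also set against that of wild type. limma called 0 of 78 members in this difference, against 8.49% of tested genes, and 3 had an unadjusted p under 0.05, against 28.3%. The members' median difference was 0.18 on the log2 scale beside -0.03 over all tested genes, and the 3 members were rpl-25.1 at 0.58 ± 0.227, rpl-43 at 0.55 ± 0.214 and rpl-11.2 at 0.63 ± 0.251 (SE), with adjusted p of 0.114, 0.116 and 0.124. Moulting, sperm, germline and vitellogenin markers moved in the same comparison. 3 of 12 hypodermis and moulting markers were called higher. 20 of 37 tested sperm markers, 2 of 16 germline markers and 6 of 6 vitellogenins were called lower. These counts stand beside 8.49% of tested genes called in either direction. The markers' part in the members' values was not tested. The other 3 tests of a mutant response against the wild type response held 0 called members by limma, with 0, 1 and 0 under an unadjusted p of 0.05 for the B12 response in nhr-10, the B12 response in nhr-68 and the propionate response in nhr-68, against 8.82%, 5.7% and 11.4% of tested genes. Of all tested genes 0.0257%, 0.00642% and 0% were called there.

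**Figure D3:**
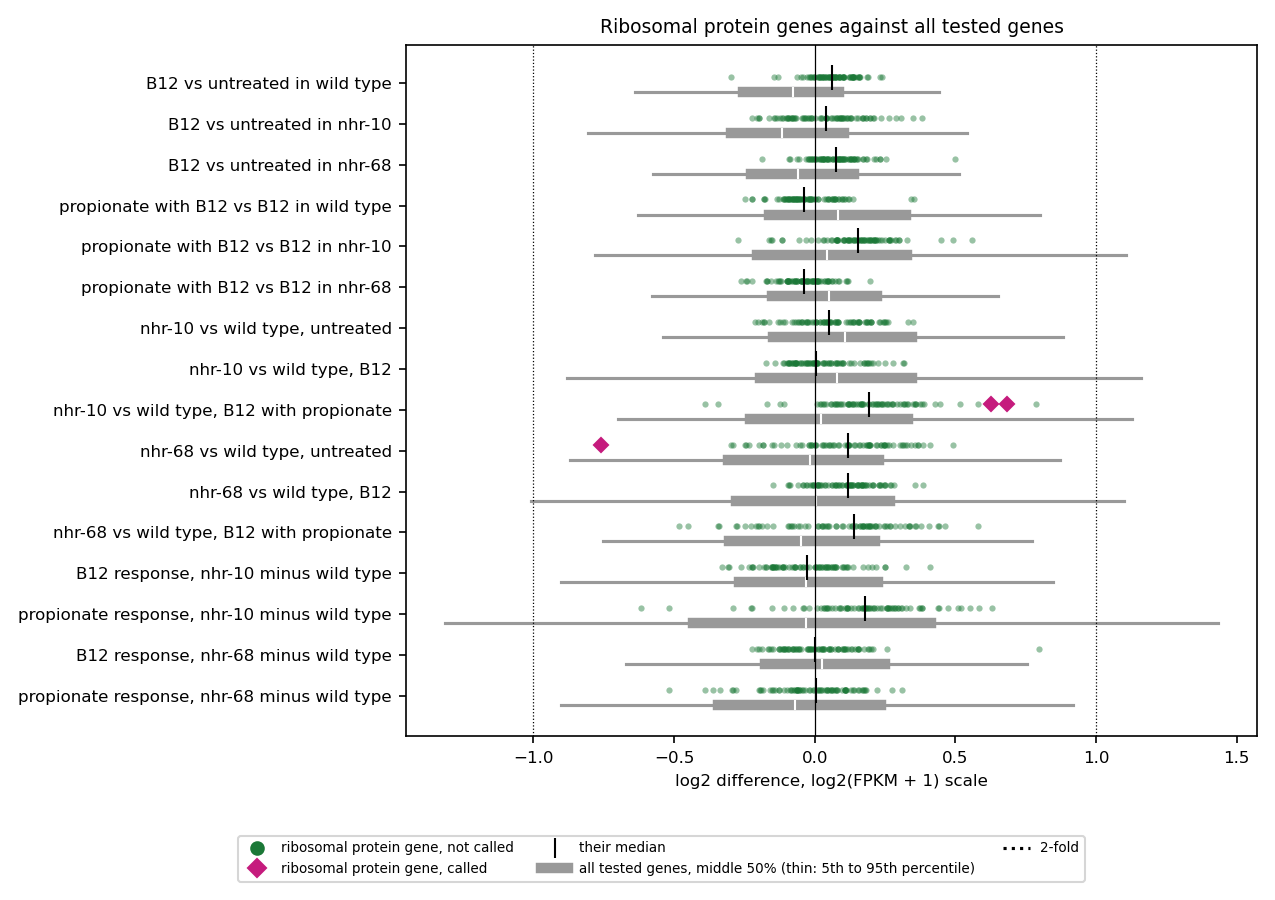
Log2 differences of the 78 ribosomal protein genes (points, with a black tick at their median) in 16 comparisons, above the middle 50% (thick grey bar) and the 5th to 95th percentile (thin line) of all tested genes, with the 2-fold lines dotted. Diamonds are the 3 called values, rpl-43 and rps-29 at 0.63 and 0.69 in nhr-10 mutants and rpl-42 at -0.76 in nhr-68 mutants.

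nhr-10 mutants and wild type differed in 2 ribosomal protein genes, both on B12 with propionate. Untreated, limma called 0 of 78 members, where 1.39% of tested genes were called, and 1 member was under an unadjusted p of 0.05 against 18.2% of tested genes. On B12 it called 0 members, where 9.68% of tested genes were called, and 0 were under an unadjusted p of 0.05 against 26.2%. On B12 with propionate 2 members were called, both higher, beside 7.19% of tested genes called and 5.6% called higher. 14 members had an unadjusted p under 0.05, all higher in the mutant, beside 23.7% of tested genes in either direction and 15.3% higher. The members' share called, 2.56%, was therefore below that of all genes. On B12 with propionate the members' median log2 difference was 0.19 beside 0.02 over all tested genes, and in the other 2 treatments it was 0.05 and 0.01, below 0 with median-ratio scaling, at -0.08 in each. All these comparisons use the same wild type libraries as those of the nhr-68 mutant.

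The called genes were rpl-43 and rps-29, both for short zinc-binding proteins, one of each subunit. rpl-43 (chromosome II, 14155294 to 14155569, plus strand, WBcel235) had 1172 and 1399.8 FPKM in nhr-10 mutants on B12 with propionate and 791 and 869.9 FPKM in wild type. rps-29 (chromosome III, 794300 to 795031, plus strand) had 690.0 and 894 FPKM in the mutant and 458 and 521 FPKM in wild type. Neither gene's groups overlap, which adds no support because the genes were picked by their calls in this comparison. In both genes the library that stood apart is the higher of the mutant pair. The means were 1286 ± 161 against 831 ± 55.6 FPKM for rpl-43 and 792 ± 144 against 489 ± 44.5 FPKM for rps-29 (SD, n = 2 each). The log2 difference was 0.63 ± 0.152 (SE, limma adjusted p = 0.0266) for rpl-43 and 0.69 ± 0.185 (SE, limma adjusted p = 0.0431) for rps-29.

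Both calls depended on single libraries. Without the nhr-10 library that stood apart, 0 members were called, and rpl-43 was at 0.50 with an adjusted p of 0.273 and rps-29 at 0.50 with 0.382. Without the other nhr-10 library 4 were called, rpl-43 and rps-29 with rpl-11.2 and rpl-25.1. Leaving out either wild type library also ended both calls. In the same comparison 6 of 12 hypodermis and moulting markers were called higher, beside 5.6% of tested genes called higher. The part of that shift in the members' values was not tested.

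nhr-68 mutants against wild type gave 1 called member in 3 comparisons. Untreated, 1 member was called, on the lower side, beside 6.02% of tested genes called and 3.58% called lower, and 6 were under an unadjusted p of 0.05 beside 23.8%. On B12 limma called 0 members against 9.84% of tested genes, and 1 was under an unadjusted p of 0.05 against 25.6%. On B12 with propionate limma called 0 against 3.13%, and 9 were under an unadjusted p of 0.05 against 19.7%. The members' median log2 difference was 0.12, 0.12 and 0.14 in the 3 treatments beside -0.02, 0.00 and -0.05 over all tested genes.

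The gene called lower was rpl-42, the lowest of all members (chromosome II, 11092713 to 11094022, plus strand). It had 4.85 and 4.24 FPKM in the 2 untreated nhr-68 libraries and 8.25 and 8.51 FPKM in untreated wild type. The means were 4.545 ± 0.431 against 8.38 ± 0.184 FPKM (SD, n = 2 each), and the log2 difference was -0.76 ± 0.203 (SE, limma adjusted p = 0.0465). On B12 the difference was 0.04 (adjusted p = 0.938) and on B12 with propionate -0.48 (adjusted p = 0.213). Leaving out any 1 of the 4 libraries ended the call for rpl-42, at differences of -0.68 to -0.84.

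The differences between nhr-68 mutants and wild type were alike in size in the 3 treatments for several members, so they were also averaged over the treatments, a comparison chosen after the data were seen. Of the 78 members 12 were called higher and 2 lower, beside 13.3% of all tested genes higher and 17.5% lower. As shares of the members these are 15.4% and 2.56%, so the share called higher was near that of all genes and the share called lower under it. Called in either direction were 14 members beside 30.8% of tested genes, and 28 had an unadjusted p under 0.05 beside 42% of tested genes. The members' median log2 difference was 0.12, beside -0.02 over all tested genes. In the members, same-numbered libraries of 1 genotype deviated together, with correlations of 0.11 to 0.60 between treatments, so the 6 libraries of a genotype may not be independent and the p-values of this average may be too small. Scaling each library to the same total (TPM) gave 24 called higher and 1 lower, with 16% of tested genes higher and 15.5% lower, and median-ratio scaling 20 and 2, with 16% higher and 16.6% lower. The 12 genes called higher were rpl-43, rps-2, rps-5, rpl-18, rps-29, rpl-4, rps-27, rpl-28, rps-10, rpl-34, rpl-1 and rpl-31, and the 2 called lower rpl-42 and rpl-24.2. The exons of rpl-28 overlap another gene, so its value is uncertain.

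5 of them, rpl-43, rps-2, rps-5, rpl-18 and rps-29, were called in each of 19 alternative fits, 12 of which leave out 1 library. Without 1 library the count of called members ran from 5 to 17. It was 5 without wild type B12 with propionate replicate 1, without nhr-68 B12 replicate 1 or without nhr-68 B12 with propionate replicate 1, 6 without nhr-68 untreated replicate 2, 7 without wild type untreated replicate 1, and 9 without nhr-68 untreated replicate 1 or nhr-68 B12 with propionate replicate 2.

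rps-2 (chromosome IV, 7925298 to 7926391, minus strand) encodes a protein near the entry of the messenger RNA channel. Its FPKM was higher in every nhr-68 library than in every wild type library. limma called rps-2 in the average over treatments but in no single treatment. It had 1434 to 1776 FPKM in 6 wild type libraries with a median of 1568, and 2020.1 to 2193 FPKM in 6 nhr-68 libraries with a median of 2089.7. In nhr-10 mutants it had 1253 to 1866 FPKM with a median of 1571, which overlaps wild type. The log2 difference between nhr-68 mutants and wild type was 0.41 ± 0.0886 (SE, limma adjusted p = 0.00462), made up of 0.41 without additions, 0.39 on B12 alone and 0.44 with propionate added.

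rpl-43 gave the largest difference in this average among the members. It had 791 to 988 FPKM in wild type, with a median of 903, and 1099.6 to 1393 FPKM in nhr-68 mutants, with a median of 1221. The groups do not overlap, and the log2 difference was 0.45 ± 0.0875 (SE, limma adjusted p = 0.00282). rps-29 had 458 to 595 FPKM in wild type and 633 to 739 FPKM in nhr-68 mutants, again without overlap, with a log2 difference of 0.40 ± 0.107 (adjusted p = 0.0136). rps-5, a protein of the small subunit's head, had 1139.7 to 1392 FPKM in wild type and 1400.2 to 1743 FPKM in nhr-68 mutants and differed by 0.34 ± 0.0883 (adjusted p = 0.0121). rpl-18 had 1652 to 1939 FPKM and 2086 to 2358 FPKM and differed by 0.31 ± 0.0824 (adjusted p = 0.0129). rpl-4, whose protein lines the peptide tunnel, had 1619 to 1932 FPKM and 1985 to 2339 FPKM and differed by 0.32 ± 0.0897 (adjusted p = 0.0182).

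On the lower side, rpl-42 differed by -0.40 ± 0.117 (adjusted p = 0.0209), with 5.13 to 9.76 FPKM in wild type and 4.24 to 7.18 FPKM in nhr-68 mutants, ranges that overlap. rpl-24.2 differed by -0.24 ± 0.0784 (adjusted p = 0.0347), with 123 to 162 FPKM and 114 to 142 FPKM, which also overlap. These are 2 of the 3 members with the lowest mean levels.

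The 6 libraries of each genotype can be compared without a model. In 14 of the 78 members, or 17.9%, every nhr-68 library was above every wild type library, against 4.43% of tested genes. In 0 members was every nhr-68 library below, against 6.18% of tested genes. The 14 counted on the higher side became 22 with TPM, against 5.17% of tested genes, and 5 with median-ratio scaling, against 5.11%, so the number depends on how the libraries were scaled. The 5 were rpl-34, rpl-43, rps-2, rps-27 and rps-29. For nhr-10 mutants the same count was 0 with FPKM, against 2.7% of tested genes, 2 with TPM, against 2.65% (rpl-12 and rpl-34), and 0 with median-ratio scaling, against 2.33%. The average of nhr-10 mutants over treatments held 0 called members by limma where 15.3% of tested genes were called, with 6 under an unadjusted p of 0.05 beside 32.3% of tested genes.

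**Figure D4:**
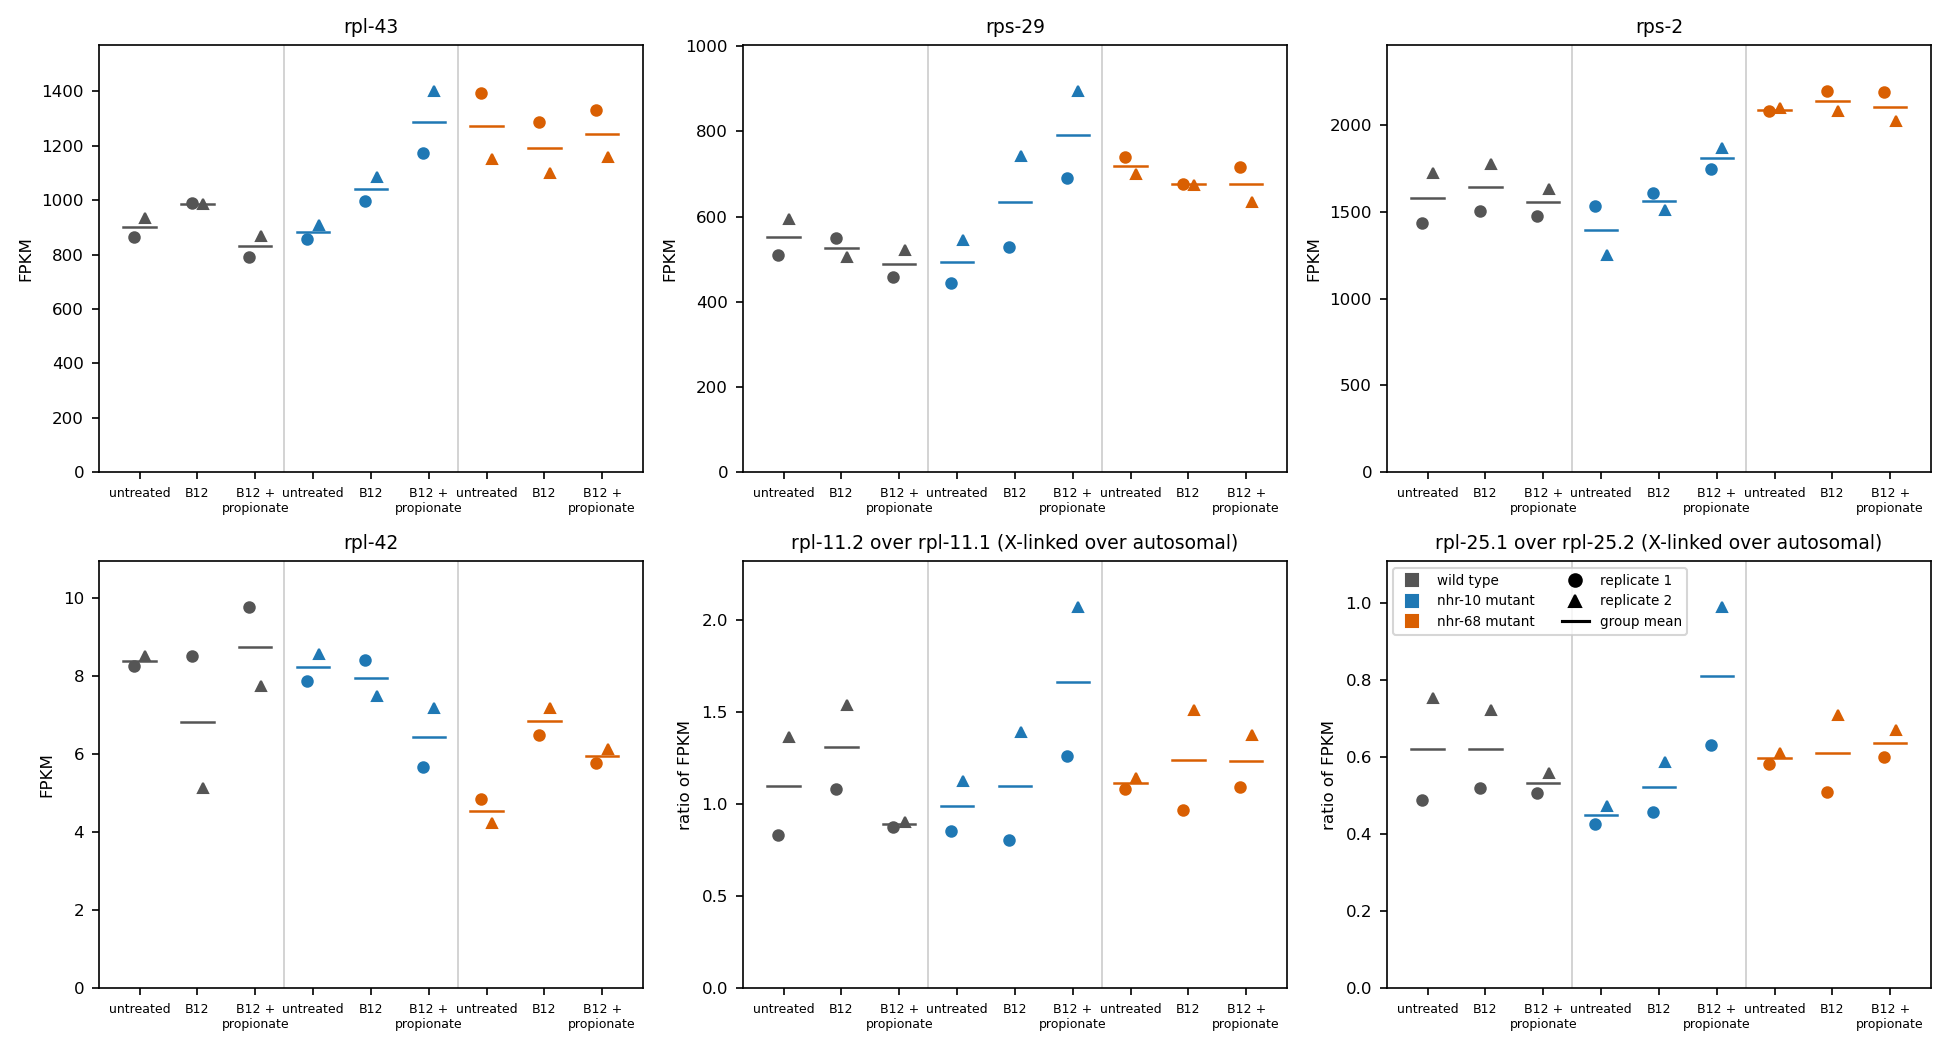
FPKM by library for rpl-43, rps-29, rps-2 and rpl-42, and the FPKM ratio of each X-linked gene to its autosomal partner; points are libraries (circle replicate 1, triangle replicate 2), lines group means and colours genotypes. rps-2 is at 2020.1 FPKM or more in every nhr-68 library and at 1866 or less in every other library.

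Markers of tissues differed between nhr-68 mutants and wild type as well. In the same average 13.3% of all tested genes were called higher and 17.5% lower, and the marker counts stand beside these shares. 8 of 16 germline markers were called higher and 0 lower, 5 of 6 vitellogenins higher, 3 of 6 body wall muscle and 2 of 6 pharynx markers higher, 2 of 7 intestine markers higher and 1 lower, and 3 of 37 tested sperm markers higher and 14 lower. Neuron markers held 0 calls of 7, and 4 of 12 hypodermis and moulting markers were called higher and 3 lower. Germline markers summed to 1064 to 1672 FPKM in nhr-68 libraries and 731 to 1437 FPKM in wild type, intestine markers to 4884 to 6284 and 3126 to 5736 FPKM, vitellogenins to 2880.2 to 9653 and 629 to 3519 FPKM, and body wall muscle markers to 3644 to 4092 and 2571 to 3901 FPKM. Sperm markers summed to 9267 to 11047 and 7426 to 13737 FPKM. Their part in the ribosomal protein values was not tested.

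B12 and propionate averaged over the 3 genotypes, also chosen after the data were seen, called 0 of 78 members by limma. For B12 against untreated 2 members had an unadjusted p under 0.05, rpl-28 at 0.17 ± 0.0700 (SE) and rpl-31 at 0.18 ± 0.0777, with adjusted p of 0.206 and 0.225, beside 19.4% of tested genes under that p and 2.65% called. For propionate with B12 against B12 0 members had an unadjusted p under 0.05, beside 22.1% of tested genes, and 3.57% of tested genes were called. The members' median there was 0.03, beside 0.08 over all tested genes. With median-ratio scaling it was -0.05 beside 0.01, so its sign depends on the scaling. The median 95% interval of a member reached 0.20 to either side on the log2 scale in these averages, against 0.34 within a single genotype.

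Several ribosomal proteins have a pair of genes. rpl-11.1 on chromosome V and rpl-11.2 on chromosome X encode the protein that binds 5S ribosomal RNA in the large subunit together with the product of rpl-5. rpl-11.1 had 858 to 1460.2 FPKM with a median of 1187 and rpl-11.2 1090.1 to 1969 FPKM with a median of 1301. The X-linked gene made 0.805 to 2.07 times the FPKM of its partner, with a median of 1.11. rpl-25.2 on chromosome I had 1325 to 2020.1 FPKM and X-linked rpl-25.1 792 to 1482 FPKM, a ratio of 0.426 to 0.988 with a median of 0.585. These 2 are the only members on chromosome X.

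The ratios of both pairs were highest in the nhr-10 library that stood apart, at 2.07 and 0.988. Of the 5 libraries with the highest ratio in each pair 4 were shared, and across the 18 libraries the log2 ratios of the pairs had a Pearson correlation of 0.91, given as a description because the libraries share their scaling and their groups. Both ratios followed the replicate number. Replicate 2 was above replicate 1 in 9 of 9 groups for rpl-11.2 over rpl-11.1, and in 9 of 9 groups for rpl-25.1 over rpl-25.2, against 4 of 9 groups for each of the rpl-24 and rpl-41 pairs. What the number marks is not in the labels. rpl-11.2 over rpl-11.1 was 0.832 and 1.36 in untreated wild type, 1.08 and 1.54 in wild type on B12, and 0.805 and 1.39 in nhr-10 mutants on B12. Some groups of a genotype did not overlap. In nhr-10 mutants rpl-25.1 over rpl-25.2 was 0.630 and 0.988 in the libraries given propionate, above the B12 libraries (0.457 and 0.587) as well as the untreated ones (0.426 and 0.472). In wild type rpl-11.2 over rpl-11.1 was 0.876 and 0.906 on B12 with propionate, below both libraries on B12. The ratios were not tested, and limma called none of the 4 genes in the 16 comparisons.

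rpl-24.2 ran at 0.0265 to 0.0413 times the FPKM of rpl-24.1, which had 3964 to 4925 FPKM and belongs to the finished large subunit. rpl-41.1 ran at 0.0382 to 0.0702 times rpl-41.2, which had 2449 to 4076 FPKM. Both rpl-41 genes encode the smallest protein of the ribosome and are neighbours on chromosome I with closely similar sequence, so the split of reads between them is uncertain. rpl-7 and rpl-7A encode unrelated proteins of the large subunit despite the shared number, with medians of 4528 and 2022 FPKM. The same holds for rpl-36 with a median of 2317 and rpl-36.A with 3575 FPKM.

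4 genes of the large subunit, rpl-1 (rpl-10a in RefSeq, at the same coordinates), rpl-3, rpl-7A and rpl-12, are known in C. elegans to make transcripts that nonsense-mediated decay removes, and the deposited values do not separate such transcripts from the productive ones. rpl-3, rpl-7A and rpl-12 had 3164 to 4551, 1499 to 2578 and 1944 to 2561 FPKM, and rpl-1 had 1167 to 1541 FPKM in wild type, 1129.9 to 1867 FPKM in nhr-10 mutants and 1443 to 1878 FPKM in nhr-68 mutants, which overlap. None of the 4 was called in the 16 comparisons. In the nhr-68 average rpl-1 was called higher at 0.32 ± 0.107 (SE, limma adjusted p = 0.0365), and rpl-7A was at 0.25 (adjusted p = 0.0566), rpl-12 at 0.05 (adjusted p = 0.657) and rpl-3 at 0.02 (adjusted p = 0.877).

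Most members moved together from library to library. The Pearson correlation of each gene with the median of the other members over the 18 libraries, on the log2(FPKM + 1) scale, had a median of 0.60 and was above 0.5 for 52 of the 78. It is a description, since all genes of a library share its scaling. It was highest for rps-6, the small subunit protein phosphorylated by S6 kinase, at 0.89, then rpl-35 at 0.88, rpl-17 at 0.86, rps-3 at 0.83 and rpl-26 at 0.81. It was lowest for rpl-42 at -0.30, rpl-37 at -0.05, rpl-24.2 at -0.05, rps-17 at 0.04 and rpl-11.1 at 0.04. Among genes outside the set the closest to the members' median were F11E6.6 at 0.84, str-31 at 0.80, dmsr-7 at 0.80, C29F3.3 at 0.80, ndua-7 at 0.80, ubq-2 at 0.79, igdb-2 at 0.77, atp-4 at 0.77, cyc-2.1 at 0.77 and T23F2.4 at 0.76. Only ndua-7, ubq-2, atp-4 and cyc-2.1 of these had a mean above 100 FPKM, and ubq-2 encodes ubiquitin fused to a large subunit protein.

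A second component of the variation went with gene length. The first 2 principal components of the 78 genes held 45.3% and 30.6% of their variance, and the genes' loadings on the second had a Pearson correlation of -0.63 with log2 exon length. The 15 members with exons of 400 bp or shorter and the 20 with 700 bp or longer were then compared in each library as median log2 differences from the genes' own means. In untreated nhr-10 mutants the short genes were at -0.18 in replicate 1 and 0.29 in replicate 2, while the long genes were at -0.05 and -0.08. In wild type on B12 the short genes were at 0.11 and -0.26 and the long genes at -0.04 and 0.04. The short genes of these replicates therefore lay on opposite sides of 0 in both groups. Short minus long was below 0 in every nhr-68 library, from -0.28 to -0.008. It ran from -0.30 to 0.15 in wild type and from -0.13 to 0.37 in nhr-10 mutants. On the first component every nhr-68 library, at 0.47 or more, lay above every wild type library, at 0.37 or less. nhr-10 libraries, at -1.53 to 1.49, overlapped both. Short and long genes were both above their means in the nhr-10 library that stood apart, at 0.35 and 0.23. rpl-43 and rps-29, with exons of 276 and 265 bp, are among the short genes, and rps-2 with 998 bp and rpl-4 with 1119 bp among the long ones. The part of length in the calls was not tested.

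**Figure D5:**
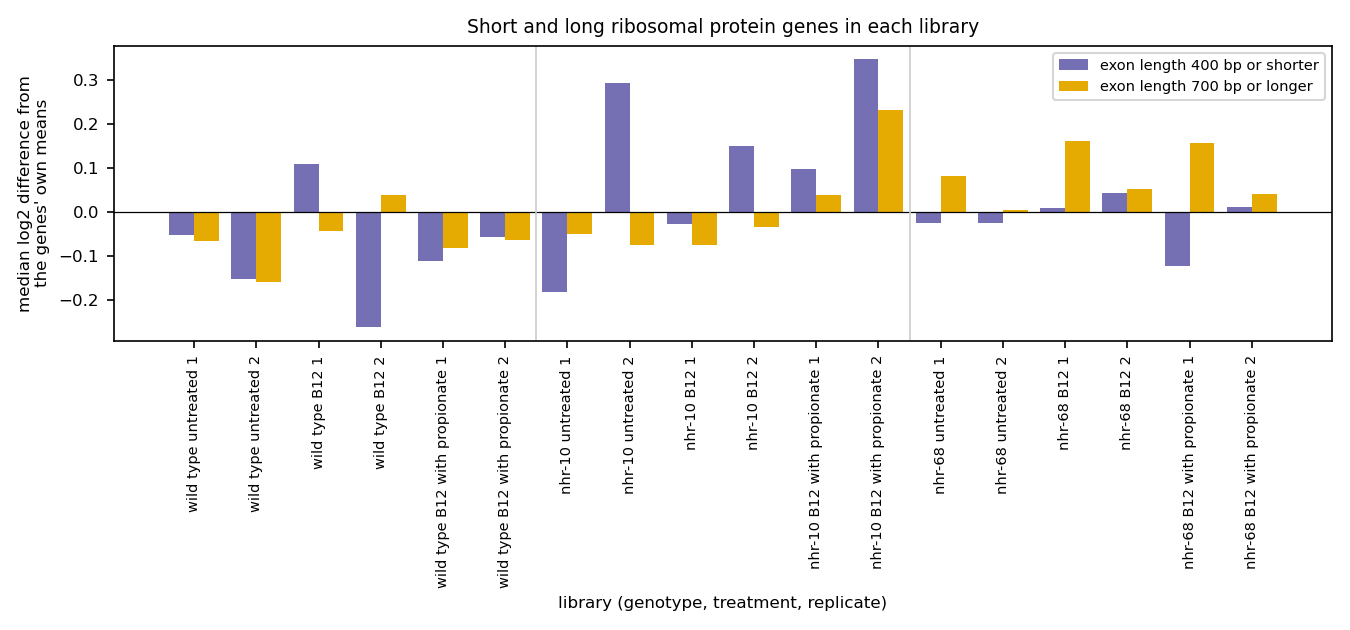
For each of 18 libraries, the median log2 difference from the genes' own means of the 15 members with exons of 400 bp or shorter (violet) and the 20 with exons of 700 bp or longer (yellow). Short genes run from -0.26 in wild type B12 replicate 2 to 0.35 in nhr-10 B12 with propionate replicate 2, and replicates of untreated nhr-10 lie on opposite sides of 0.

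Ribosomal proteins under other symbols, and genes that work with the ribosome, were counted from lists kept apart from the members. The stalk proteins rla-0, rla-1 and rla-2, the scaffold rack-1 and the ubiquitin fusions ubq-2 and ubl-1 held 0 calls of 6 in each of the 16 comparisons, and so did 8 elongation factors and 15 growth regulators. In nhr-10 mutants against wild type on B12 with propionate, 1 of 24 ribosome biogenesis genes was called lower, rbd-1, which acts in maturation of the small subunit, at -0.48 (limma adjusted p = 0.0412). There 7.19% of tested genes were called in either direction. In nhr-68 mutants against wild type on B12 with propionate, 1 of 32 initiation factors was called lower, eif-2alpha, beside 3.13% of tested genes in either direction. In the nhr-68 average 4 of 6 stalk and fusion genes were called higher and 0 lower, beside 13.3% of tested genes higher and 17.5% lower. rack-1 was at 0.39 ± 0.0988 (SE, limma adjusted p = 0.0104), rla-0 at 0.32 ± 0.101 (0.0319), rla-1 at 0.27 ± 0.0905 (0.0405) and ubl-1 at 0.30 ± 0.101 (0.0415).

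The counts of all lists in the same average stand beside 13.3% of tested genes called higher and 17.5% lower. Elongation factors held 3 called higher of 8 and 0 lower. These were eef-1A.1, which carries aminoacyl-tRNA to the ribosome, at 0.41 ± 0.126 (SE, limma adjusted p = 0.0254), eef-1B.1 at 0.24 ± 0.0750 (0.03002) and eef-1G at 0.25 ± 0.0777 (0.0304). Initiation factors held 1 called higher and 5 lower of 32. eif-6, which keeps the large subunit from joining the small one, was the one higher at 0.34 ± 0.0893 (0.0135), and eif-2alpha at -0.29 ± 0.0703 (0.00826), eif-1.A at -0.27 ± 0.0727 (0.0149) and ife-4, a cap-binding protein, at -0.38 ± 0.106 (0.0177) were among the lower ones. Ribosome biogenesis genes held 0 called higher and 2 lower of 24, rbd-1 at -0.26 ± 0.0748 (0.0203) and nol-16 at -0.38 ± 0.119 (0.0309). Growth regulators held 2 higher and 0 lower of 15, the Myc-like partner mxl-2 at 0.57 ± 0.122 (0.00440) and rict-1 of TOR complex 2 at 0.29 ± 0.0926 (0.0304). Of 69 genes of the mitochondrial ribosome 1 was called higher and 6 lower, and their median log2 difference was -0.17 beside 0.12 for the cytosolic members and -0.02 over all tested genes. No test of a difference between these lists, or between a list and all tested genes, was made.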

How the data were processed

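Per the labels' protocols, RNA from whole L4 animals was made into libraries by BGI. The authors deposited FPKM values for 20953 genes in 18 libraries. HISAT, Bowtie2, RSEM and the genome build WBcel235 are named in the submitters' processing notes, and their versions and the use of strand are not stated in those sources. As RSEM splits shared reads by estimate, close copies are uncertain, as are 12 members whose exons overlap another gene (rpl-2, rpl-5, rpl-7, rpl-14, rpl-22, rpl-23, rpl-28, rpl-32, rpl-39, rps-4, rps-16 and rps-18). The symbol rpl-10a was matched to rpl-1 by its coordinates in RefSeq's table of WBcel235. Coordinates and exon lengths came from Ensembl's annotation of WBcel235. Genes that reached 1 FPKM in 2 or more libraries were tested (15575) with limma 3.58.1 in R 4.3.3 on log2(FPKM + 1), with a mean per group, an intensity trend and adjustment over all tested genes. The 16 comparisons were B12 and propionate responses, each mutant against wild type, and differences between responses. Depth was estimated from FPKM steps after taking 30 bp off each length, and no counts were used. The fit was tested on simulated data. Members and lists were chosen with earlier results of these data known. Named members were those called, pairs that share a number, the 5 highest and 5 lowest, the 5 most and 5 least correlated with the median, and known decay targets, with rpl-28, members called in the averages and those with an unadjusted p under 0.05 named after their values were seen. Alternatives were a pseudocount of 0.1, no filter, median-ratio scaling, only the compared groups, a replicate block, leaving out each library and, added later, TPM, a replicate block within each genotype and the averages. No sequence was used here.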

Additional observations from a re-analysis of the deposited data

How the results depend on the processing

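Where members were called, their number moved by more than 1.5 times under several alternatives. For nhr-10 against wild type on B12 with propionate the count of 2 was 1 without the filter, 0 in a fit of only the groups compared, 4 with TPM, and 0 to 4 without 1 library. There rpl-43 and rps-29 had adjusted p of 0.244 and 0.245 in the fit of only the groups compared, which leaves fewer degrees of freedom. For nhr-68 against wild type untreated the count of 1 was 0 without the filter, 0 with only the groups compared, 2 with TPM, and 0 to 0 without 1 library. For nhr-68 against wild type on B12 with propionate the count of 0 was 1 with median-ratio scaling and 1 with TPM, rpl-43 in both. For the propionate response of nhr-10 mutants and its difference from wild type it was 0 to 1 without 1 library. For nhr-10 averaged over treatments it was 1 with TPM and 0 to 3 without 1 library, 3 without wild type B12 replicate 1. For nhr-68 averaged over treatments the count of 14 was 22 with median-ratio scaling, 25 with TPM and 5 to 17 without 1 library. No difference of a named member changed sign in these alternatives where it was called. The causes were not tested.

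Without the 5 highest members the share of total FPKM was 15.7%, 16.2% and 15.9% in wild type (untreated, B12, B12 with propionate), 16.4%, 16.3% and 17.9% in nhr-10 mutants, and 17.4%, 18.01% and 17.6% in nhr-68 mutants. With the 20 highest other genes out of the total it was 19.4%, 20.2% and 19.8% in wild type, 20.4%, 20.01% and 22.1% in nhr-10 mutants, and 21.2%, 22.03% and 21.7% in nhr-68 mutants. The ratio of rps to rpl without the 5 highest was 0.793, 0.784 and 0.775 in wild type, 0.782, 0.760 and 0.764 in nhr-10 mutants, and 0.775, 0.792 and 0.777 in nhr-68 mutants.

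Over all tested genes the deviations of same-numbered replicates had correlations of -0.20 to 0.25, over 0.1 in 2 of 6 comparisons within a genotype and 1 of 6 between genotypes. Over the members they ran from 0.11 to 0.60 within a genotype, over 0.1 in 6 of 6, and from -0.40 to 0.27 between genotypes, over 0.1 in 2 of 6. With the replicate number as 1 block the nhr-68 average gave 15 calls in place of 14, and nhr-10 on B12 with propionate 2. With a replicate block within each genotype, chosen after seeing the data, the count was 6 for nhr-10 against wild type on B12 with propionate (rpl-11.2, rpl-25.1, rpl-41.1, rpl-43, rps-21 and rps-29), 2 for the propionate response of nhr-10 mutants (rpl-11.2 and rpl-25.1), 3 for its difference from wild type (these and rpl-43), 2 for nhr-68 against wild type untreated, 1 on B12 with propionate, 3 for the nhr-10 average and 22 for the nhr-68 average. This block takes variation shared by same-numbered libraries out of the error, and differences between genotypes then do not carry it.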
